A study of Mus musculus with 30 samples.

Results

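Old mice joined to a partner of like age by parabiosis were compared with old mice that were never joined, by RNA sequencing of hematopoietic stem cells from their bone marrow. The comparison rests on 10 of the series' 30 libraries, taken by the group and the library code that each sample title carries. The joined (old isochronic) group held 6 libraries, 5 from C57BL/6 (B6) mice of 22 months and 1 from a BoyJ mouse of 21 months. The unjoined group held 4 libraries, 3 from B6 mice of 22 months and 1 from a BoyJ mouse of 21 months. All 10 mice were male, and the labels give no engineered allele and no drug for any of them. BoyJ is a congenic line close to B6 that carries the other form of Ptprc, the leukocyte surface phosphatase CD45, so that the cells of joined partners can be told apart. The labels give neither which libraries came from partners of 1 pair nor how long the pairs were joined nor whether unjoined mice had an operation. Library totals ran from 12269259 to 28894583 estimated counts, and 14284 genes entered the test.

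Parabiosis joins the circulations of a pair of mice surgically, and a pair of like age is the usual control for the surgery and the shared blood when old and young mice are joined. Hematopoietic stem cells are mostly out of the cell cycle in the undisturbed marrow. Dividing cells make cyclins, kinetochore and spindle proteins, and in S phase the replication-dependent histones, whose RNA is otherwise scarce. Immediate early genes, which include the Fos, Jun, Egr, Klf and Nr4a transcription factors, are switched on within minutes of a signal without new protein synthesis, and their RNA is short-lived.

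Several libraries need naming before the results. For joined B6 libraries 1 and 2 the code in the title is also the description text of a sample of another group, so that title and description conflict, and counts are given with and without these libraries. Joined B6 library 4 had the lowest total, 12269259, and stood at the edge of the group for several genes below. The 10 neutrophil markers, granule genes among them, made up 0.0525% of counts in joined B6 library 1 (95% Wilson interval 0.0517% to 0.0534%) and 0.0622% in joined B6 library 5 (0.0613% to 0.0632%). Over the other 8 libraries they made up at most 0.0067%, with 0.00181% to 0.00442% in the unjoined group, and S100a9, a defining marker, reached 213 CPM in joined B6 library 5 against 0.57 to 15.6 CPM in unjoined mice. The intervals cover counting error only. The 9 stem cell markers took 0.322% to 0.402% of counts in joined and 0.394% to 0.418% in unjoined libraries. Kit, the stem cell factor receptor, stood at 801 to 1037 CPM (counts per 1e6 of the library total, after TMM correction of the totals for composition). Ptprc stood at 383 to 470 CPM and Ly6a (Sca-1) at 38 to 81.8 CPM. Of the 9 stem cell markers 7 had a negative difference, joined minus unjoined. At an unadjusted p under 0.05 (edgeR) 5 were lower and 0 higher, where 3.68% of all genes were lower and 4.52% higher. Procr and Slamf1, which are among them, are given with the stem cell identity genes below. Each library was a separate sample in the labels, and the p-values measure the spread between these samples. In sorted bulk cells, fewer cells of a type and less RNA per cell cannot be told apart.

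Over all 10 libraries, with strain as a term, genes of mitosis and the replication-dependent histones stood higher in the joined mice, and several stem cell genes stood lower. Immediate early genes stood lower in joined B6 mice but not in the single BoyJ pair. No single gene passed the test. The edgeR quasi-likelihood test called 0 of 14284 genes (0%) at an adjusted p under 0.05, and the smallest adjusted p was 0.0596, for Ccna2. At an unadjusted p under 0.05 there were 645 genes higher in joined mice (4.52%) and 526 lower (3.68%), 1171 in all. The 2 groups did not overlap for 110 genes that were higher (0.77%) and 107 that were lower (0.749%). DESeq2 called 226 genes on the same counts and limma-voom with quality weights called 139. The median log2 difference over all genes was 0.01.

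Among genes of the cell cycle and mitosis, all 25 tested had a higher fitted level in joined mice, 22 of them at an unadjusted p under 0.05, and 9 had no overlap between the groups. Their median log2 difference was 0.72, and it lay between 0.60 and 0.80 whichever library was left out. Together they took 0.334% to 0.492% of counts in the 6 joined libraries (median 0.376%) and 0.171% to 0.318% in the 4 unjoined ones, so the summed levels did not overlap either. Without joined B6 libraries 1 and 2 there were again 22 at an unadjusted p under 0.05, and without the libraries with neutrophil reads 21.

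Ccna2 encodes cyclin A2, which drives S phase and entry into mitosis, and lies on chromosome 3 from 36564865 to 36572150 (GRCm38). It stood at 143, 164 and 215 CPM (lowest, median and highest) in the joined libraries and at 78.6, 91 and 65 CPM in the unjoined B6 mice and 115 CPM in the unjoined BoyJ mouse. Every joined library lay above every unjoined one. The log2 difference was 0.99 ± 0.14 (SE, adjusted p = 0.0596, edgeR). Without joined B6 library 4 it was 0.90 ± 0.12 with an adjusted p of 0.0155, and Knl1, which ranked behind it, also passed, at 0.0106. Without joined B6 library 1, Ccna2 passed at an adjusted p of 0.0448.

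Knl1, a kinetochore scaffold that binds the spindle checkpoint proteins, stood at 172, 180 and 314 CPM (lowest, median, highest) in joined mice and at 93.8, 109, 76.9 (B6) and 113 CPM (BoyJ) in unjoined mice. The highest value, from joined B6 library 4, was set apart from the other 5, which all lay between 172 and 192 CPM and above every unjoined library. Its log2 difference was 1.05 ± 0.17 (adjusted p = 0.0838, edgeR). Mki67, the gene of the proliferation marker Ki-67, stood at 1152, 1330 and 1861 CPM in joined mice and at 758, 872, 573 (B6) and 1127 CPM (BoyJ) in unjoined mice. The unjoined BoyJ library lay just below the lowest joined one, without overlap.

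Cks1b, a small subunit of cyclin-dependent kinase complexes, had a log2 difference of 0.96 in B6 mice and a log2 ratio of 0.92 between the single BoyJ libraries. It stood at 34.6, 39.3 and 48.5 CPM in joined mice and at 22.1, 22.6, 17.9 (B6) and 20.2 CPM (BoyJ) in unjoined mice, a difference of 0.95 ± 0.16 over both strains (adjusted p = 0.0838, edgeR). Here the BoyJ unjoined library lay among the B6 unjoined ones. Cenpe, the kinesin that moves chromosomes at the kinetochore, stood at 125, 138 and 182 CPM against 85.3, 96.7, 66.6 (B6) and 116 CPM (BoyJ). Ckap2l, a spindle protein, differed by 0.88 ± 0.16 on the log2 scale, and Tpx2, a spindle assembly factor that activates Aurora A, by 0.79 ± 0.15 (adjusted p = 0.0838 for both, edgeR). E2f8, a repressor in the E2F family that itself peaks in S phase, stood at 39.2, 53.1 and 72.4 CPM against 20.8, 29.2, 14.4 and 36.6 CPM, again without overlap.

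Genes of DNA replication, such as the MCM helicase subunits, leaned the same way but by less. Of 27 tested, 26 had a positive difference, 5 were at an unadjusted p under 0.05 and none was free of overlap between the groups, with a median log2 difference of 0.27. Mcm10, which helps to start the replication forks, had the smallest p, with a log2 difference of 0.84 ± 0.24 (adjusted p = 0.26, edgeR). In B6 mice alone 13 of the 27 were higher at an unadjusted p under 0.05, where 5.13% of all genes were. The median log2 ratio of the single BoyJ pair was -0.09. Over both strains the count of 5 became 3 without joined B6 library 4 and 7 with the libraries whose labels agree.

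The replication-dependent histone genes, which package newly copied DNA, had the largest median difference among the lists of the cell cycle, 0.96 on the log2 scale. Of 63 tested, 55 were higher in joined mice, 38 of them at an unadjusted p under 0.05, and none was lower at that level. Only 5 were free of overlap, and the BoyJ unjoined library is where the groups met: histone transcripts took 0.165% to 0.251% of counts in joined libraries (median 0.203%), 0.0834% to 0.117% in the unjoined B6 mice and 0.201% in the unjoined BoyJ mouse (0.199% to 0.202%). The summed level of the unjoined BoyJ mouse therefore lay within the joined range, and all unjoined B6 libraries lay below it. In B6 mice alone 52 of the 63 genes had a positive difference, and 39 were higher and 2 lower at an unadjusted p under 0.05 (edgeR).

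Hist1h2bl, an H2B gene on chromosome 13 (21715763 to 21716143, GRCm38), showed the pattern. It stood at 81.8, 112 and 155 CPM in joined mice, at 32, 56.4 and 36.8 CPM in unjoined B6 mice and at 111 CPM in the unjoined BoyJ mouse. The log2 difference was 1.13 ± 0.19 (adjusted p = 0.0838, edgeR). Hist1h3i, an H3 gene, was free of overlap, with 9.34, 14.9 and 19.3 CPM in joined mice against 3.02, 6.03, 4.24 (B6) and 7.36 CPM (BoyJ). Histone genes of a cluster are near copies of each other, so reads can be split between them in the deposited estimates, and the value of a single histone gene is uncertain.

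**Figure D1:**
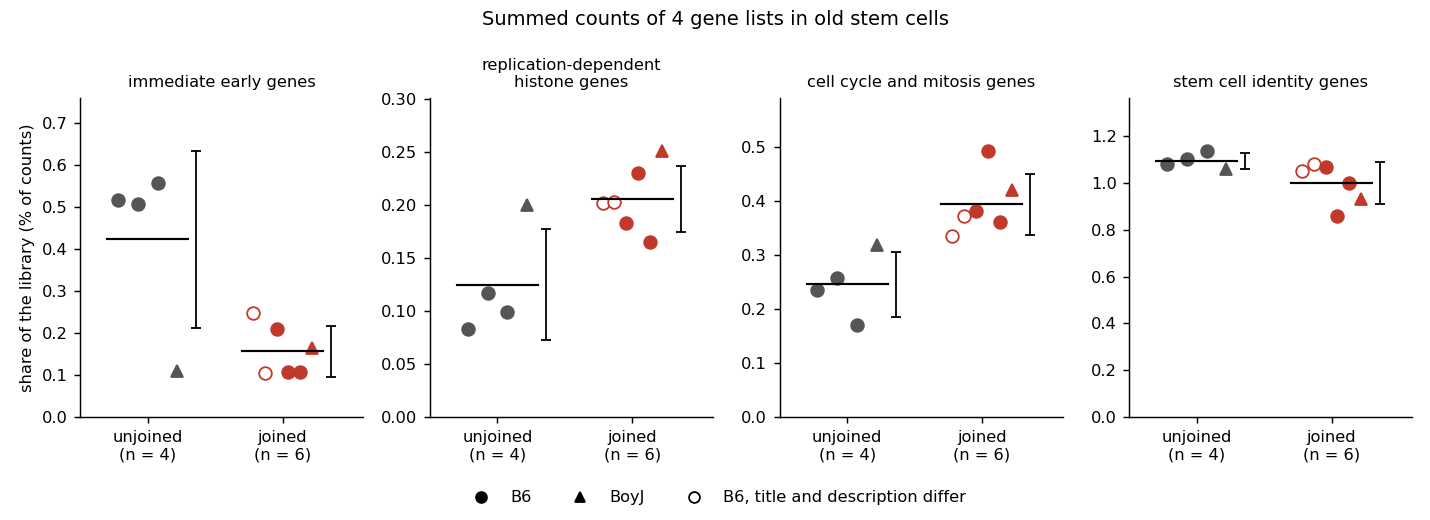
Summed counts of 4 gene lists as a percent of each library's counts (y axis, from 0) in unjoined and joined old mice (x axis), with 1 point per library, a line at the group mean and a bar of ± 1 SD; circles are B6, triangles BoyJ, and open circles the B6 libraries with conflicting labels. For mitosis genes all joined libraries lie above all unjoined ones, while for immediate early genes and histones the unjoined BoyJ library lies within the joined range and the unjoined B6 libraries lie outside it.

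Immediate early genes stood lower in joined than in unjoined B6 mice, and the single BoyJ pair went the other way. In B6 mice alone 24 of the 33 tested were lower at an unadjusted p under 0.05, where 3.94% of all genes were, with a median log2 difference of -1.66, while the median log2 ratio of the BoyJ pair was 0.80. Over both strains all 33 had a lower fitted level in joined mice and 13 were at an unadjusted p under 0.05, with a median log2 difference of -1.06, which ranged from -1.67 to -0.82 when 1 library was left out. Without joined B6 libraries 1 and 2 the count was 11, without joined B6 library 4 it was 9, and without the libraries with neutrophil reads 11. Their transcripts took 0.508% to 0.557% of counts in the 3 unjoined B6 mice and 0.104% to 0.247% (median 0.108%) in the 5 joined B6 mice. In BoyJ they took 0.165% in the joined mouse and 0.109% in the unjoined one (0.108% to 0.111%). In the young libraries of the series the same share was 0.0684% to 0.122% in 4 isochronic mice and 0.0926% to 0.204% in 7 unjoined mice. Of these groups, the 3 unjoined old B6 libraries alone exceeded 0.5%. These 3 carry consecutive library numbers, 28, 29 and 30, while the joined B6 libraries carry 11, 13, 21, 22 and 34. The labels do not say which libraries were prepared together, and a part of handling in this pattern was not tested.

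Klf4, a transcription factor of the Krüppel-like family, lies on chromosome 4 from 55527143 to 55532466 (GRCm38). It stood at 1.78, 2.79 and 9.12 CPM in joined mice, at 40.2, 34.3 and 41 CPM in unjoined B6 mice and at 2.21 CPM in the unjoined BoyJ mouse. The log2 difference over 10 libraries was -2.59 ± 0.57 (adjusted p = 0.124, edgeR). Klf6, of the same family, stood at 97.1, 132 and 176 CPM in joined mice against 480, 337, 385 (B6) and 134 CPM (BoyJ). For both genes the unjoined B6 mice stood apart and the unjoined BoyJ mouse lay inside the joined range.

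Nr4a1, an orphan nuclear receptor induced by many signals, had that pattern too, but by 1 joined library only. The unjoined BoyJ mouse stood at 12 CPM, above 5 of the 6 joined libraries. Joined libraries stood at 2.46, 4.01 and 29 CPM and unjoined B6 libraries at 49.4, 40.2 and 65.9 CPM. The 29 CPM came from joined B6 library 1. Without that library Nr4a1 passed the test, with a log2 difference of -3.38 ± 0.37 (adjusted p = 0.00544, edgeR), and with it the difference was -2.37 ± 0.68 (adjusted p = 0.324). Without both libraries with neutrophil reads it was the only gene called, at -3.22 ± 0.40 (adjusted p = 0.03, edgeR).

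Fos, a partner in the AP-1 dimer, stood at 22.3, 87.4 and 217 CPM in joined mice, 642, 623 and 737 CPM in unjoined B6 mice and 21.1 CPM in the unjoined BoyJ mouse. Egr1, a zinc finger factor, stood at 87.3, 187 and 467 CPM, against 781, 1011 and 1108 CPM (B6) and 127 CPM (BoyJ). Dusp1, a phosphatase that shuts off MAP kinases, stood at 37.9, 61.2 and 115 CPM, against 296, 320 and 303 CPM (B6) and 43.6 CPM (BoyJ). In each of these the unjoined B6 libraries did not overlap any other library, and 18 of the 33 genes had that pattern, against 267 of all 14284 genes (1.87%).

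**Figure D2:**
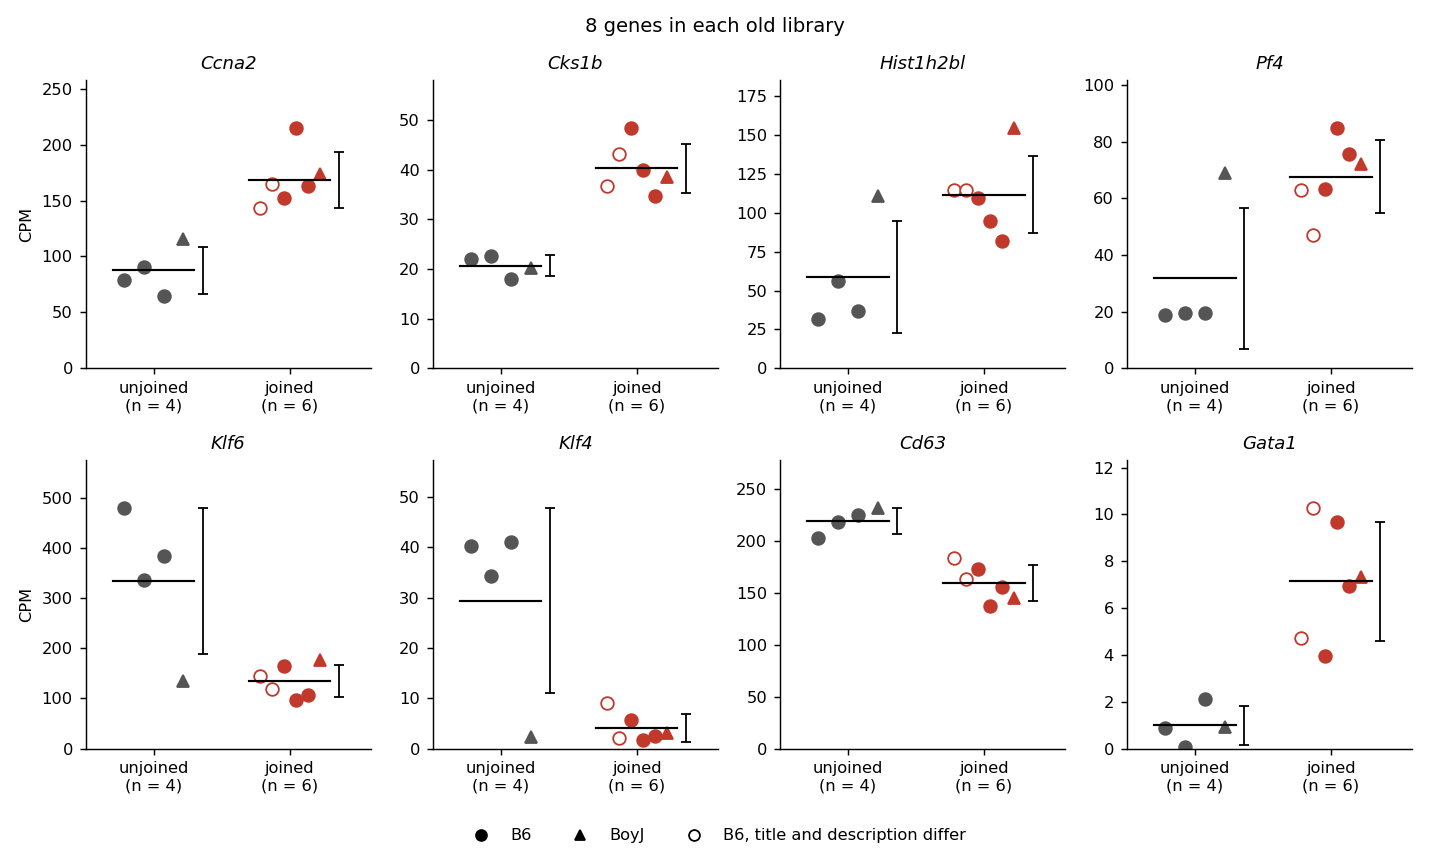
CPM of 8 genes (y axes, from 0) in unjoined and joined old mice (x axis), with 1 point per library, a line at the group mean and a bar of ± 1 SD; circles are B6, triangles BoyJ, and open circles the B6 libraries with conflicting labels. Ccna2, Cks1b, Cd63 and Gata1 separate the groups in both strains, while for Hist1h2bl, Pf4, Klf6 and Klf4 the unjoined BoyJ mouse lies inside the joined range.

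The stretches upstream of some of these genes are shown because the histone, mitosis and immediate early lists are known for different promoter elements. The 250 bases before the RefSeq start (RefSeq promoters, GRCm38.p6) are given, read 5′ to 3′ on the gene's strand. They are shown for 2 immediate early genes, 1 gene of the mitosis list (Cenpe), Cks1b, which is not in that list, and 1 histone gene. Capitals mark a cAMP response element (CRE, TGACGTCA), an AP-1 site (TGANTCA), an E-box (CACGTG) or a CCAAT box (CCAAT or its reverse ATTGG), searched on both strands. The windows are chr13:5861239-5861488 (+) for Klf6, chr17:26508473-26508722 (-) for Dusp1, chr3:89418292-89418541 (-) for Cks1b, chr3:135212313-135212562 (+) for Cenpe and chr13:21716184-21716433 (-) for Hist1h2bl, which RefSeq names H2bc13.
Klf6: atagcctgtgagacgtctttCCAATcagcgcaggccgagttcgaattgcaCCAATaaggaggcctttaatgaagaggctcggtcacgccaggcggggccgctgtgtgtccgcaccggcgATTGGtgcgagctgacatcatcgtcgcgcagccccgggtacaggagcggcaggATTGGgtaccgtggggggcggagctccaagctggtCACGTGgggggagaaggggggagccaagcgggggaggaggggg
Dusp1: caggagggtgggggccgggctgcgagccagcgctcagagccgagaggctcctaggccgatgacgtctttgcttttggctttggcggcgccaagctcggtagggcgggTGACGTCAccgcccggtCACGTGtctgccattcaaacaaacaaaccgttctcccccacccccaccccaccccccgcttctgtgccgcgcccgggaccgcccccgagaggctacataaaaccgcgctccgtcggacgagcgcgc
Cks1b: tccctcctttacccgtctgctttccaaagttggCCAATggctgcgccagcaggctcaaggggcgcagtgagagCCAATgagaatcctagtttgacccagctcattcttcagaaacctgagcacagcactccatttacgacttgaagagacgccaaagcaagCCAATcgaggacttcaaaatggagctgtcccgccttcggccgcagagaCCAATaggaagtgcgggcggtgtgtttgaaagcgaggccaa
Cenpe: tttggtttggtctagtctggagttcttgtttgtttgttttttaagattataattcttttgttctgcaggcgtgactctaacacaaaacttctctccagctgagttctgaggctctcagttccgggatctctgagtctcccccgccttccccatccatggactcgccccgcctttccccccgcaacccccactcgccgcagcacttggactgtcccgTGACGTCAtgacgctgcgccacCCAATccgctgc
Hist1h2bl: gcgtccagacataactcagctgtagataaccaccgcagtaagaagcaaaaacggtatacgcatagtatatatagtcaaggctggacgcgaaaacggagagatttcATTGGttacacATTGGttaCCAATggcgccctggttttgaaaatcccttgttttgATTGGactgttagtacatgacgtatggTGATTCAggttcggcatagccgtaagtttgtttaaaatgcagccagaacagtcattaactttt

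The Dusp1 window held 1 CRE and 1 E-box and no CCAAT box, and the Klf6 window 1 E-box and 4 CCAAT boxes. The windows of Cks1b and Hist1h2bl each held 4 CCAAT boxes, and that of Hist1h2bl an AP-1 site as well. The window of Cenpe held 1 CRE and 1 CCAAT box. Over whole lists, a CCAAT box stood in 47 of 58 histone promoters found in the table (81%) and in 19 of 21 mitosis promoters (90.5%), against 34.5% of all 27025 promoters, 33.3% of stem cell identity genes and 28.6% of immediate early genes. An E-box stood in 21.4% of the 28 immediate early promoters found, against 6.05% of all, and in none of the histone or mitosis promoters. A CRE stood in 10.7% of immediate early (3 of 28), 6.9% of histone (4 of 58) and 4.76% of mitosis promoters (1 of 21), against 1.62% of all. These percents rest on few promoters. An AP-1 site stood in 3.57% of immediate early promoters (1 of 28) and 6.87% of all. A CArG box stood in 7.14% of immediate early promoters (2 of 28), 6.9% of histone promoters (4 of 58) and 0 of 21 mitosis promoters, against 1.4% of all. These matches describe letters in a window.

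Stem cell identity genes leaned lower in the joined mice. Of 32 tested, 7 had a positive difference and 10 were lower at an unadjusted p under 0.05, 3 of them without overlap, with a median log2 difference of -0.13. Their summed share was 0.858% to 1.08% of counts in joined libraries and 1.06% to 1.14% in unjoined ones, which overlap. Cd63, a tetraspanin, stood at 137, 160 and 184 CPM in joined mice and at 203, 218, 225 (B6) and 232 CPM (BoyJ) in unjoined mice. Mllt3, a cofactor of stem cell maintenance, stood at 312, 367 and 421 CPM against 424, 493, 587 and 502 CPM. Procr, the protein C receptor used to sort stem cells, stood at 79.6, 130 and 139 CPM against 155, 171, 156 and 151 CPM. None of the 3 overlapped between the groups, in either strain, and their log2 differences were -0.46 ± 0.10, -0.48 ± 0.10 and -0.48 ± 0.13 (adjusted p = 0.0993, 0.111 and 0.232, edgeR). Slamf1, the marker CD150, differed by -0.32 ± 0.12 with overlap (adjusted p = 0.43, edgeR).

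Genes placed higher in old stem cells were mostly lower in the joined old mice, and genes placed lower in old cells mostly higher. Both lists were chosen with earlier results of these data known, so the counts are not independent evidence. Of 35 in the first list, 7 had a positive difference, 8 were lower and 1 higher at an unadjusted p under 0.05, with a median of -0.22. Of 15 in the second list, 12 had a positive difference, 6 were higher at that level and 0 lower, with a median of 0.42. Of all genes 4.52% were higher and 3.68% lower at that level. The same contrast in young mice gave medians of -0.11 for the first list and 0.19 for the second. Vwf, the clotting factor that marks platelet-biased stem cells, stood at 97.3, 129 and 158 CPM in joined mice and at 177, 182, 239 (B6) and 226 CPM (BoyJ) in unjoined mice, a log2 difference of -0.64 ± 0.13 (adjusted p = 0.0951, edgeR). Hmgb2, a chromatin protein that is abundant in cycling cells and belongs to the second list, differed by 0.59 ± 0.14 (adjusted p = 0.155, edgeR). Plek, a platelet signalling protein, ran against the first list, at 361, 401 and 460 CPM in joined mice against 267, 283, 263 (B6) and 395 CPM (BoyJ).

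Genes of platelets and megakaryocytes went both ways. Of 22 tested, 7 were higher and 2 lower at an unadjusted p under 0.05, with a median of 0.11. Pf4, the platelet chemokine CXCL4, stood at 47.1, 67.6 and 84.8 CPM in joined mice, at 18.9, 19.6 and 19.4 CPM in unjoined B6 mice and at 68.9 CPM in the unjoined BoyJ mouse. Itga2b (CD41) stood at 32.1, 52.4 and 84.8 CPM against 25.6, 28.5, 26.5 (B6) and 64.6 CPM (BoyJ). In both, the unjoined BoyJ mouse lay inside the joined range and the unjoined B6 mice below it. All 7 tested markers of megakaryocytes and platelets had a positive difference, and the 8 found in the count table took 0.0119% to 0.0152% of counts in joined and 0.00536% to 0.0121% in unjoined libraries, 1 of the 7 without overlap. Their part in the result was not tested.

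Gata1, the erythroid and megakaryocyte transcription factor, was near the floor in unjoined mice. It stood at 3.93, 7.14 and 10.3 CPM in joined mice and at 0.856, 0.0814, 2.12 (B6) and 0.901 CPM (BoyJ) in unjoined mice. The groups did not overlap, and the fitted log2 difference, which rests on few counts in the unjoined libraries, was 2.80 ± 0.60 (adjusted p = 0.109, edgeR). Among 12 erythroid priming genes 9 had a positive difference. At an unadjusted p under 0.05 there were 2, Gata1 and Rhag, a red cell membrane protein, where 4.52% of all genes were higher. In B6 mice alone the median log2 difference was 1.07, with 5 of 12 higher at that level, where 5.13% of all genes were. The median was -0.24 in the single BoyJ pair and -0.02 for the same contrast in young mice. Ermap, another red cell membrane protein, stood at 51.9 CPM in joined B6 library 5 and at 3.6 to 7.65 CPM in the other joined libraries. Erythroblast markers took 0.00117% to 0.00371% of counts in joined and 0.00137% to 0.0023% in unjoined libraries.

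**Figure D3:**
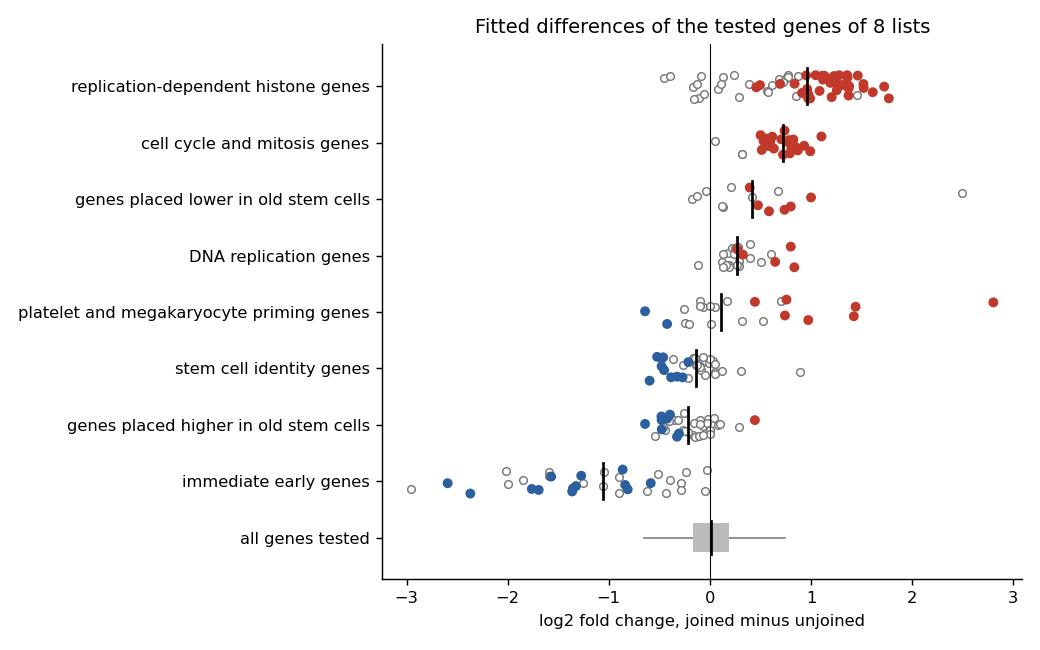
Fitted log2 fold change, joined minus unjoined (x axis), of each tested gene of 8 lists (1 point per gene, filled where the unadjusted p is under 0.05, with vertical scatter added for sight), a black line at each median, and for all genes a box of the middle 50% with a line over the middle 90%. All 25 mitosis genes lie above 0 and all 33 immediate early genes below 0, while stem cell identity genes lie mostly below 0 by less.

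Other genes with small p-values belonged to none of these lists. Ide, the insulin-degrading enzyme, stood at 194, 225 and 291 CPM in joined mice and at 373, 313, 362 (B6) and 491 CPM (BoyJ) in unjoined mice, without overlap, with a log2 difference of -0.68 ± 0.12 (adjusted p = 0.0838, edgeR). Rnf17, a tudor domain protein best known in germ cells, stood at 1.95, 3.28 and 3.56 CPM against 4.08, 20.9, 13.3 and 13.9 CPM. Tmem215 stood at 9.36, 11.6 and 24.8 CPM against 4.6, 3.1, 1.94 and 2.14 CPM, and Mfsd2b, a sphingosine-1-phosphate exporter, at 14.3, 21.2 and 33.8 CPM against 8.97, 7.98, 9.06 and 8.71 CPM. None of these 4 overlapped between the groups. Cd74, the invariant chain of MHC class II, stood at 19.3, 26.6 and 35 CPM against 47, 52.3, 45.1 and 39.4 CPM, and Mycn, a Myc family factor, at 107, 141 and 179 CPM against 213, 195, 202 and 193 CPM. Gpr65, a proton-sensing receptor, differed by 1.17 ± 0.22, Nabp1, a single-strand DNA binding protein, by -0.76 ± 0.15 and Cdk11b, a kinase, by -0.58 ± 0.12 (adjusted p = 0.0838, 0.086 and 0.0917, edgeR). Exoc6b, an exocyst subunit, differed by -0.42 ± 0.09 and Arhgef3, a RhoA exchange factor, by -0.48 ± 0.11 (adjusted p = 0.122 and 0.132, edgeR).

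In B6 mice alone, 5 joined against 3 unjoined, single genes did pass. The edgeR test called 27 of 14434 genes higher (0.187%) and 13 lower (0.0901%) in joined mice. Of the 27 that rose, 14 were replication-dependent histone genes, with log2 differences from 1.15 to 1.85, and 3 were in the mitosis list, Ccna2, Mki67 and Cenpe. Knl1, Cks1b, Ckap2l, Kif15 and E2f8 rose too, as did Pf4 and Plek. Of the 13 that fell, 4 were in the immediate early list, Klf4, Klf6, Ccn1 and Jund. Members of the lists had been seen to differ in these libraries, so their number among the calls is not independent evidence. With the 3 joined B6 libraries whose labels agree, 39 genes were called, 18 higher and 21 lower, 23 of the 40 among them, and all 40 were at an unadjusted p under 0.05. In that smaller fit Nr4a1 and Ppp1r15a, a stress-induced phosphatase subunit, fell as well (adjusted p = 0.000322 for both, edgeR), as did Junb, Nr4a2 and Dusp1.

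Some markers of other cell types stood apart between the B6 groups as well. Neutrophil markers took 0.00343% to 0.0622% of counts in joined and 0.00181% to 0.00203% in unjoined B6 mice, without overlap, and 5 of 7 were higher at an unadjusted p under 0.05. Megakaryocyte and platelet markers took 0.0119% to 0.0138% against 0.00536% to 0.0061%, also without overlap, with 3 of 7 higher at that level. Mast cell and basophil markers took 0.000744% to 0.00461% against 0.000631% to 0.000712%, and T and NK cell markers 0.00431% to 0.00701% against 0.0071% to 0.00852%. Their part in the B6 calls was not tested.

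Klf6 fell by 1.66 ± 0.16 on the log2 scale in B6 mice (adjusted p = 0.000707, edgeR), the smallest p. Pf4 rose by 1.79 ± 0.19 (adjusted p = 0.0018) and Hist1h3b by 1.57 ± 0.20 (adjusted p = 0.00647, edgeR). Mcl1, which keeps stem cells alive by blocking apoptosis, fell by 0.90 ± 0.10 (adjusted p = 0.00209, edgeR), from 505, 428 and 437 CPM in the unjoined to 216 to 282 CPM in the joined mice. Klf4 fell by 3.17 ± 0.43 and Ccna2 rose by 1.10 ± 0.15 (adjusted p = 0.00757 for both, edgeR). Nfkbiz, an atypical inhibitor of NF-kB that is induced early, fell by 2.01 ± 0.32 (adjusted p = 0.0465, edgeR), from 225, 151 and 207 CPM to between 27.5 and 79 CPM. Btg1, an antiproliferative gene of quiescent cells, fell by 1.08 ± 0.16 (adjusted p = 0.0107, edgeR).

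With 1 joined and 1 unjoined BoyJ library, the BoyJ mice give a ratio without a replicate check. For the 27 genes that rose in B6 mice the BoyJ ratio had the same direction in 22, with a median of 0.31 on the log2 scale against 1.31 in B6. For the 13 that fell it had the same direction in 1, Nabp1, with a median of 0.42 against -1.08. Mitosis genes had a median BoyJ ratio of 0.39, immediate early genes 0.80 and stem cell identity genes -0.23. Over all genes the median BoyJ ratio was 0.01.

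The B6 joining effect was set against the BoyJ pair in 1 edgeR fit, which assumes that BoyJ mice vary as B6 mice do. Strain and animal cannot be told apart in it. It called 11 of 14284 genes (0.077%), against 2 to 48 with 1 B6 library left out, 405 with DESeq2 and 22 with limma-voom. At an unadjusted p under 0.05 there were 2027 genes (14.2%), 19 of 33 immediate early and 18 of 63 histone genes among them. Btg1 and Mcl1 were the genes of the B6 calls that passed, with differences of -2.36 and -1.60 on the log2 scale. Yrdc, a tRNA modification enzyme, stood at 323 CPM in the unjoined BoyJ mouse and at 9.95 to 21.3 CPM in the other 9 libraries, a difference of 4.70. Sgf29, a chromatin reader of the SAGA complex, stood at 129 CPM in that mouse and at 27.9 to 40.8 CPM elsewhere.

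**Figure D4:**
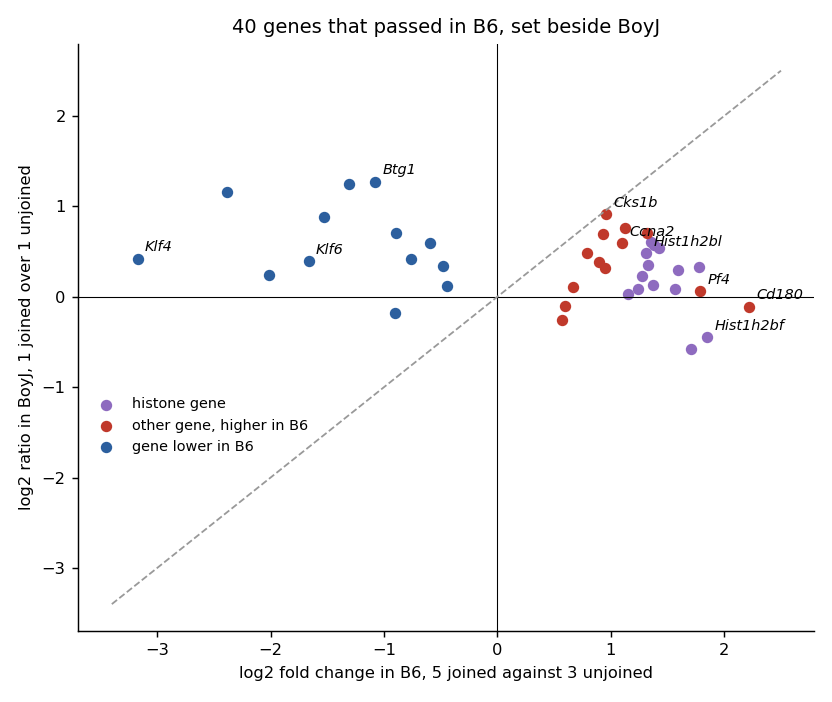
The 40 genes that passed in B6 mice, by their log2 fold change there (x axis) and by the log2 ratio of the single joined over the single unjoined BoyJ library (y axis), with 1 point per gene and a dashed line where both are equal. Of the 27 genes that rose in B6 mice 22 lie above 0 in BoyJ, and of the 13 that fell 1 lies below 0.

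The same joining contrast in young mice, 4 isochronic against 7 unjoined, gave the lists beside these values. Of 15057 genes tested there, 0 passed (0%), 1046 were higher (6.95%) and 956 lower (6.35%) at an unadjusted p under 0.05. Mitosis genes had a median of 0.50, with 17 of 25 higher at that level, histones 0.63 with 33 of 63, DNA replication genes 0.38 with 15 of 27, and stem cell identity genes -0.12 with 7 of 32 lower. Immediate early genes had a median of -0.28, with 5 lower and 2 higher. Genes placed higher in old stem cells had a median of -0.11, with 6 of 35 lower and 4 higher. Those placed lower in old stem cells had a median of 0.19, with 4 of 15 higher and 0 lower. Klf4 differed by -1.94 in young mice and Klf6 by -0.08, against -2.59 and -1.27 in old mice. Ccn1, a secreted matricellular protein, differed by 2.92 in young and -1.76 in old mice.

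The difference between the old and the young joining effect passed for 0 of 15057 genes (0%), with 1028 at an unadjusted p under 0.05 (6.83%), 10 of 33 immediate early genes and 1 of 25 mitosis genes among them. Of genes placed higher in old stem cells 2 of 35 were at that level, and of those placed lower 1 of 15. The smallest p in the lower direction was that of Ide, with a difference of -1.21 ± 0.22 (adjusted p = 0.22, edgeR): Ide was lower in joined old mice and higher, by 0.52, in joined young mice. Without young isochronic BoyJ library 1 Ide passed. Behind it came Rpn1, Nrp2, Paf1 and Ripk1. In the other direction the genes were Zfp689, Oas2, Slain2, Ugt1a6b and Luc7l3. Oas2, an interferon-induced antiviral enzyme, differed by 1.17 in old and -1.29 in young mice.

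The authors' deposited table of old unjoined against old isochronic mice called 31 of 17329 genes (0.179%) at an adjusted p under 0.05. By the sign of its test statistic 19 were higher and 12 lower in joined mice. For Gpr1, Gm20431 and Gm12666 the listed log2 fold change had the other sign than the statistic. In the authors' deposited table a mean count under 10 was listed for 15 of the 31. Of the 31, 14 could be tested here, and all 14 had the same direction in both. They include Gata1, Mfsd2b, Cks1b, Rbm3 and Hist1h2bq on the higher side, and Klf6, Jun, Dusp1 and Nfkbiz on the lower side. Across 13930 genes, which are not independent replicates and share the libraries, the statistic of the authors' deposited table, which is positive where unjoined mice are higher and was turned in sign, had a Pearson r of 0.736 with the log2 differences here and of 0.629 with those from matching columns by description.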

How the data were processed

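Stem cell RNA from 10 old mice was measured. Per the submitters' processing notes the authors used FastQC, MultiQC, Salmon and DESeq2 with GRCm38 (versions not given in the sources used here), and they deposited a table of estimated counts per gene, held as whole numbers. The authors' deposited comparison of the same groups gives a log2 fold change, a test score, a p-value, an adjusted p-value and a mean signal (counts divided by size factors). Columns were matched by the code in sample titles, and 1 column with a code in no title was not used.

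Genes passing edgeR's filterByExpr were fitted with edgeR 4.0.16 in R 4.3.3 (robust quasi-likelihood, TMM, strain as a term), with Benjamini-Hochberg adjustment and a threshold of 0.05. CPM was computed on TMM-scaled totals (deposited totals 12269259 to 28894583), and shares of counts on the unscaled totals. Counts limit precision for genes near 3 counts in a library. The fit was tested on simulated data for 14177 genes: of 100 given a 2-fold change it called 62, of 100 given a 4-fold change 91, and 6 of its 159 calls were false. Alternatives used DESeq2 1.42.0, limma 3.58.1, other scalings and filters, B6 mice alone, libraries with agreeing labels, and each library left out. The closest pair of libraries differed beyond sampling noise (chi-square per degree of freedom 21.79), so none was counted as a duplicate. Tables were made with Python 3.11.15, pandas 2.3.3 and scipy 1.17.1.

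Named genes were the 12 with the smallest p in each direction (mean log2 CPM of at least 1, established symbols), up to 4 per list, check genes and 5 each way for the difference between ages. The B6 to BoyJ ratios used a prior of 0.5 CPM. The members, the 31 pathway and 10 marker lists were chosen with earlier results of these data known. Genes that passed in B6 mice alone, the genes named for strain, the strain comparison, the fit without neutrophil reads and the CCAAT box were chosen after seeing the data. Promoters came from RefSeq (GRCm38.p6).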

Additional observations from a re-analysis of the deposited data

Results flagged for a closer look

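Of 120 groups of values examined for a single sample far from the others, 15 had one, and chance alone flags about 1 in 20 groups. Among the unjoined mice, the BoyJ library stood alone for the immediate early share (0.109% of counts, the lowest), the neutrophil marker share (0.00442%, the highest), Pf4 (68.9 CPM), Itga2b (64.6 CPM), Serpinb1a (58.8 CPM) and Plek (395 CPM, each the highest). Unjoined B6 library 3 had the lowest Tpx2, 42 CPM.

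Among the joined mice, B6 library 4, the one with the fewest counts, was highest for Knl1 (314 CPM) and Tmem215 (24.8 CPM) and lowest for Rnf17 (1.95 CPM) and for the share of genes placed higher in old stem cells (0.516%). B6 library 1 was highest for Nr4a1 (29 CPM) and Ppp1r15a (113 CPM), B6 library 5 for Ermap (51.9 CPM), and the BoyJ library for Flt3, a receptor of multipotent progenitors (63.5 CPM).

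For 11 genes the joining effect in B6 mice differed from that of the single BoyJ pair in the edgeR fit, where strain and animal cannot be told apart (2 to 48 genes with 1 B6 library left out). B6 minus BoyJ was positive on the log2 scale for Prrc2a (1.44), Yrdc (4.70), Sgf29 (2.48), Slc7a1 (1.86), Insig1 (2.48), Map1b (2.26) and Gm20075 (9.39), and negative for Tsc22d3 (-2.06), Btg1 (-2.36), Mcl1 (-1.60) and Lrrtm2 (-8.15). Gm20075 was listed at 0 in the joined BoyJ library and Lrrtm2 at 0.0751 CPM in the unjoined one, so the fitted size of these depends on the prior count. Tsc22d3, a glucocorticoid-induced gene, stood at 219 CPM in the joined BoyJ mouse and between 56.3 and 88.8 CPM in the other 9 libraries.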

How the results depend on the processing

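The count of genes passing, 0 with edgeR over 10 libraries, was 3 with columns matched by description, 40 in B6 alone, 39 in B6 with agreeing labels, 226 with DESeq2, 139 with limma-voom and 1 without the libraries with neutrophil reads. It was 0 to 41 when 1 library was left out, 41 without either BoyJ library, which leaves 1 BoyJ mouse that adds nothing to the contrast, and 2 without joined B6 library 1 or 4. It stayed 0 with agreeing labels, no strain term, all conditions fitted together, RLE scaling, no filter and a 2-fold minimum. Genes at an unadjusted p under 0.05, 1171, became 677 with all conditions in 1 fit and 87 with a 2-fold minimum, and ranged from 885 to 1325 with 1 library left out. For the difference between ages the count of 0 became 11 with DESeq2 and 0 to 1 with 1 library left out (unadjusted 891 to 1419). For the difference between strains the count of 11 became 405 with DESeq2, 22 with limma-voom and 2 to 48 with 1 library left out (48 without joined B6 library 4; unadjusted 1719 to 2356). Among 1100 values of 50 named genes, 966 kept their side, 132 passed newly, and 2 changed sign: Ptprc to 0.0058 without the neutrophil-read libraries and Kit to -0.0187 without unjoined B6 library 1 (its range with 1 library left out was -0.0187 to 0.1396). The cause was not tested. No paired analysis was possible because the labels give no numbers shared between the groups. Other limits are the single BoyJ library per group, pairing that is unknown, conflicting labels, and the consecutive library numbers of the unjoined B6 group.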

Other observations

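Other lists had smaller medians. Interferon response genes had a median log2 difference of -0.04 over 34 genes, with 3 higher and 0 lower at an unadjusted p under 0.05, Isg15, a ubiquitin-like interferon product, Oas2 and Mx2. Cytoplasmic ribosomal protein genes had a median of 0.08 in old B6 mice and of -0.29 in the BoyJ pair (0.00 over both, 78 genes, 3 lower at that level), and of 0.19 in young mice with 30 higher. Nuclear oxidative phosphorylation genes had a median of 0.13 in old B6 mice and of -0.30 in the BoyJ pair (0.04 over both), and of 0.28 in young mice, with 2 of 84 higher at that level in old and 30 in young mice. Circadian clock genes leaned lower, with a median of -0.15, 14 of 17 negative and 1 lower at that level, and a median of -0.29 to -0.07 with 1 library left out. TGF-beta and BMP signalling genes had 0 of 21 at that level in either direction, and antioxidant genes 0 of 14.

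Regulators of the G1 phase and of quiescence were split. Ccnd1, cyclin D1, stood at 39.3, 64.8 and 80.2 CPM (lowest, median, highest) in joined mice and at 86.7, 80.3, 121 (B6) and 108 CPM (BoyJ) in unjoined mice, with no overlap, a log2 difference of -0.74 ± 0.20 (adjusted p = 0.234, edgeR). Cdk6, the G1 kinase partner of the D cyclins, leaned the other way, by 0.77 ± 0.24 (adjusted p = 0.366, edgeR), with 862, 986 and 2045 CPM in joined mice against 709, 780, 597 and 1041 CPM. Atf4, the transcription factor of the integrated stress response, stood at 69.1, 90.6 and 117 CPM in joined mice, 153, 156 and 164 CPM in unjoined B6 mice and 80.2 CPM in the unjoined BoyJ mouse. Among unjoined mice Hspa5, the main chaperone of the endoplasmic reticulum, stood at 489 to 757 CPM in B6 and at 360 CPM in BoyJ. Of 14 genes of the unfolded protein response 4 were lower at an unadjusted p under 0.05, where 3.68% of all genes were. Their median log2 difference was -0.06, and 0 were free of overlap. They took 0.167% to 0.215% of counts in joined and 0.193% to 0.263% in unjoined libraries, which overlap.

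Epigenetic regulators leaned slightly higher in joined mice, by a count that depended on the libraries used. Of 19 polycomb and DNA methylation genes 14 had a positive difference. At an unadjusted p under 0.05 (edgeR) 4 were higher, Ezh2, Tet1, Dnmt1 and Uhrf1, where 4.52% of all genes were. The count was 2 in B6 mice alone, 2 without joined B6 library 4 and 2 without the libraries with neutrophil reads. It was 5 with the libraries whose labels agree. Uhrf1, which recruits Dnmt1 to newly copied DNA, stood at 35.6, 45.3 and 62 CPM in joined mice, 32.2, 27.5 and 26.2 CPM in unjoined B6 mice and 64.1 CPM in the unjoined BoyJ mouse.

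The remaining lists had at most 2 members each way at an unadjusted p under 0.05 over both strains. Of all genes 4.52% were higher and 3.68% lower at that level, so 2 of a short list is above that share. For NF-kB factors and targets these were 0 higher and 1 lower of 18, for heat shock genes 0 and 2 of 12, for glucocorticoid response genes 1 and 2 of 15, and for MHC genes 0 and 2 of 14. For p53 targets they were 0 and 2 of 18, for hypoxia and glycolysis genes 1 and 0 of 19, for mitochondrially encoded genes 0 and 2 of 13, and for complement genes 0 and 0 of 10. Without overlap between the groups, 2 MHC genes and 1 p53 target were lower, against 0.749% of all genes. Receptor, JAK-STAT and homing genes had 2 and 2 of 26, 0 and 1 of 16, and 2 and 2 of 22. Lymphoid priming genes had 1 and 0 of 13, and myeloid priming genes 1 and 2 of 11, with a median of 0.42 that was 0.29 with the libraries whose labels agree. Mpo, the myeloperoxidase of granulocyte precursors, stood at 187 CPM in joined B6 library 5 and at 0.901 to 2.12 CPM in unjoined mice. In B6 mice alone 6 of 15 glucocorticoid response genes were lower and 1 higher at an unadjusted p under 0.05 (edgeR). Of all genes 3.94% were lower and 5.13% higher there. Their median was -0.27 in B6 mice and 0.86 in the BoyJ pair. Glucocorticoid response genes took 0.152% to 0.222% of counts in joined and 0.259% to 0.266% in unjoined B6 mice, without overlap. NF-kB factors and targets took 0.0468% to 0.0529% against 0.0599% to 0.0687% in these mice.

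Markers of other cell types overlapped between the groups over both strains. Monocyte and macrophage markers took 0.0166% to 0.0233% of counts in joined and 0.0174% to 0.0203% in unjoined libraries, endothelial markers 0.0183% to 0.0216% and 0.0188% to 0.0214%, T and NK cell markers 0.00431% to 0.00701% and 0.00628% to 0.00852%. B cell markers took 0.00109% to 0.00228% and 0.00153% to 0.00218%, stromal and bone markers 0.00154% to 0.00431% and 0.00132% to 0.00206%, and mast cell and basophil markers 0.000744% to 0.00461% and 0.000631% to 0.00146%.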
